A study of Arabidopsis thaliana with 8 samples.

Results

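PRA1.B3 and PRA1.B6 are paralogues of the Arabidopsis PRA1 family of small membrane proteins, and Cpn60beta3 and Cpn60beta4 are paralogous beta subunits of the plastid chaperonin. The 4 genes were chosen by name, among probes that the platform annotation assigns to 1 gene only, and with their values in leaf and root already known. Each has 1 such probe: 3982 for PRA1.B3 (AT5G05380), 3977 for PRA1.B6 (AT5G07110), 4241 for Cpn60beta3 (AT5G56500) and 1876 for Cpn60beta4 (AT1G26230). They are 4 of the 691 genes with a probe of their own. All 4 annotated names matched the RefSeq symbol of the locus, a lookup of names that does not test what the probes measure.

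The samples were wild-type Arabidopsis thaliana of the Columbia 0 ecotype, leaves on 4 arrays and root material on 4 arrays. The labels state no treatment, age or growth condition. All sample titles open with the same number, whose meaning the titles do not give. Total RNA was hybridised to 3439 probes, and each spot was given as an intensity on a linear, relative scale that starts at 0. Nothing in the labels says that the 4 arrays of a tissue came from separate plants, so p-values measure only the spread between these arrays, which may be technical.

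PRA1 proteins bind prenylated Rab GTPases, the switches that direct vesicles between membranes, and sit in the endoplasmic reticulum, the Golgi and endosomes. In Arabidopsis, PRA1.B6 is known as a regulator of protein export from the endoplasmic reticulum to the Golgi. Plastid chaperonin is a barrel of stacked rings, built from alpha and beta Cpn60 subunits, in which newly imported or newly made proteins fold. Rubisco is its best known client, and Cpn60beta4 is known for folding NdhH, a subunit of the plastid NADH dehydrogenase-like complex.

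Array intensities summed to between 2867.9 and 3504.6. Probes listed at exactly 0 made up between 20% and 22.8% of each leaf array and between 12.8% and 15.1% of each root array. Zeros were thus more frequent on every leaf array than on any root array. Of 6 leaf marker probes tested (light-harvesting, photosystem and Calvin cycle genes), 5 fell in root and 1, PSBW, rose. A further leaf marker, SBPASE, was listed at 0 on all 8 arrays, and none of the 8 root marker genes had a probe, so the root label could not be checked against markers of its own. With limma and a Benjamini-Hochberg adjusted p threshold of 0.05, the calls towards root took 20.1% of the 3298 probes tested and those towards leaf 22.1%, together 42.2%. These were 664 and 729 probes; on the intensities as deposited, without scaling between arrays, the split was 1138 against 492.

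The PRA1.B paralogues stood in opposite tissues. PRA1.B3 read 0.0801, 0.100, 0.0981 and 0.113 on leaf arrays 1 to 4 and 2.91, 2.45, 1.12 and 1.20 on root arrays 1 to 4. The dimmest root array was 9.95-fold above the brightest leaf array, and root replicates 1 and 2 were well above root replicates 3 and 4. The means were 0.0979 ± 0.0135 in leaf and 1.92 ± 0.897 in root (SD over 4 arrays per tissue), a ratio of 19.6. After quantile normalisation the log2 difference, root minus leaf, was 3.58 ± 0.32 (moderated SE).

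PRA1.B6 showed the reverse order. Its intensity was 0.714, 0.931, 0.878 and 1.02 on the leaf arrays and 0.0947, 0.161, 0.212 and 0.192 on the root arrays. The tissues did not overlap, since the dimmest leaf array was 3.36-fold above the brightest root array. The means were 0.885 ± 0.128 in leaf and 0.165 ± 0.0514 in root (SD, n = 4), so that leaf exceeded root by a ratio of 5.36, and the log2 difference was -3.12 ± 0.39. Since the genes were chosen with this contrast known, these values are a description and no test is given for them. In whole organs, fewer cells that express a gene and less RNA per cell cannot be told apart.

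Both chaperonin paralogues stood higher in root. Cpn60beta3 read 0.176, 0.196, 0.153 and 0.128 on the leaf arrays and 0.636, 0.609, 0.379 and 0.436 on the root arrays. Every root array was above every leaf array, by 1.93-fold at the closest. The means were 0.163 ± 0.0294 and 0.515 ± 0.126 (SD, n = 4), and the ratio of root to leaf was 3.15. The log2 difference was 0.93 ± 0.22 after normalisation but 1.64 on the intensities as deposited, where the median of all probes stood at 0.80 instead of 0.05.

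Cpn60beta4 was listed at 0 on leaf replicates 1, 2 and 4 and read 0.0977 on leaf replicate 3. Its root intensities were 0.301, 0.328, 0.390 and 0.369. The dimmest root array was thus 3.08-fold above the only leaf array with a reading, and no fold is given against the arrays at 0. The log2 difference of 4.43 ± 1.06 rests on the floor that replaced those zeros: it was 2.61 with a floor at the 5th instead of the 1st percentile of the positive intensities and 2.07 with an offset. Without leaf replicate 3 it was 5.50, and with the zeros treated as missing, which leaves leaf replicate 3 as the only leaf array, 0.97.

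**Figure D1:**
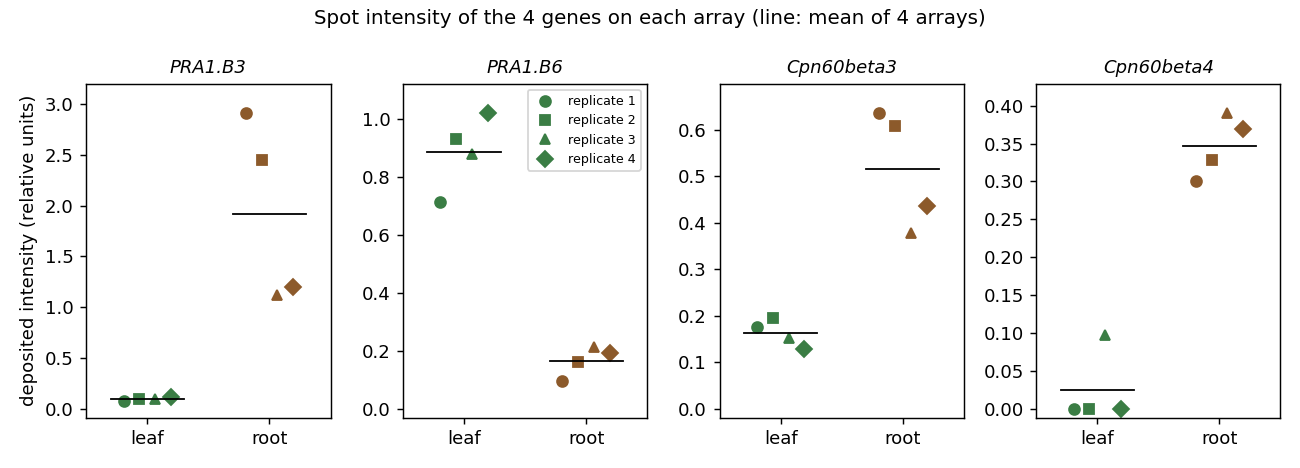
Deposited spot intensity (relative units, linear axis, a separate scale per panel) of the 4 genes on each array, with a symbol per replicate number, leaf in green and root in brown, and a line at the mean of 4 arrays. PRA1.B6 is higher on every leaf array, the other genes are higher on every root array, and 3 of the 4 leaf arrays of Cpn60beta4 lie at 0.

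Of the 4 genes, 3 were without overlap higher in root and 1 was without overlap higher in leaf after normalisation. Over all probes tested, 22.2% were without overlap higher in root and 22.0% higher in leaf. Among the 393 tested single-gene probes with a reading above 0 on all arrays, PRA1.B3 ranked 7 from the top towards root and PRA1.B6 ranked 9 towards leaf. Cpn60beta3 ranked 94 towards root, and Cpn60beta4 was not ranked because of its zeros. The same filter leaves out other genes, such as AT4G15790 and AT3G57630, which were listed at 0 on every leaf array. AT3G57630 had a larger difference towards root than PRA1.B3, although its size rests on the floor. The ranks therefore hold only among the 393 probes, and they describe genes chosen with these values known. Over all 3298 probes, 95.1% had a lower difference than PRA1.B3, 3.52% a lower one than PRA1.B6, and 68.3% a lower one than Cpn60beta3.

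**Figure D2:**
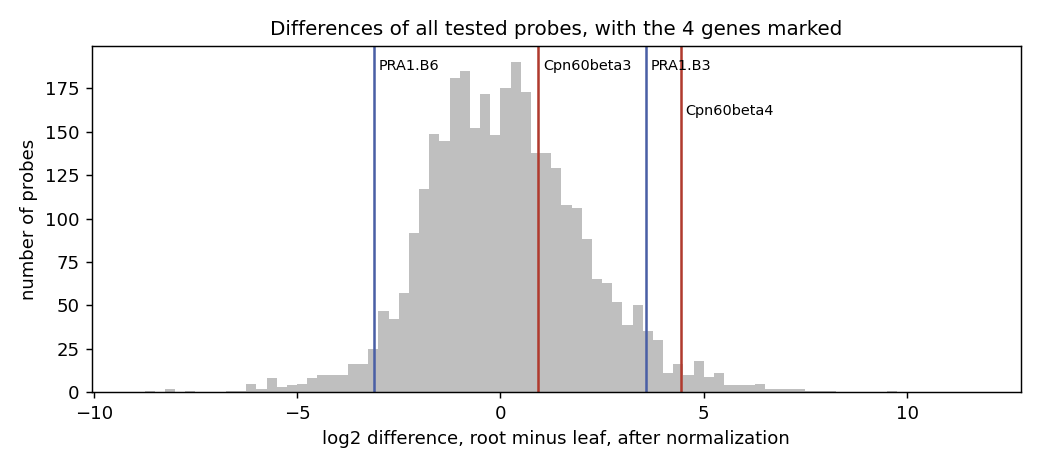
Number of probes (vertical axis) by log2 difference, root minus leaf, after normalisation (horizontal axis, bins of equal width), with vertical lines at the 4 genes. PRA1.B6 at -3.12 and PRA1.B3 at 3.58 lie on opposite flanks, Cpn60beta3 at 0.93 lies within the main body, and Cpn60beta4 at 4.43 lies far towards root, at a place that the floor sets.

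The contrast within each pair was followed as the log2 ratio of the paralogues on each array, relative to the mean of that ratio in leaf. Only the change of the ratio is given, since levels of different probes are not comparable. For PRA1.B6 over PRA1.B3 it was -0.19, -0.16, 0.17 and 0.19 on the leaf arrays and -8.43, -7.18, -5.42 and -5.78 on the root arrays. The ratio was lower on every root array than on any leaf array, and the mean change was -6.70 ± 0.70 (SE over 4 and 4 arrays). It was -7.63 from replicates 1 and 2 alone and -5.78 from replicates 3 and 4 alone, as compared after the data were seen.

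For Cpn60beta4 over Cpn60beta3 the ratio was -1.33, -1.46, 3.58 and -0.79 on the leaf arrays and 2.90, 3.09, 4.16 and 3.83 on the root arrays. Here leaf replicate 3, the array on which Cpn60beta4 was read, lay within the range of the root arrays. The mean change of 3.49 ± 1.24 was 4.62 without that array. With zeros as missing it was -0.08, so the data give no direction for this pair beyond the zeros of Cpn60beta4 in leaf.

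**Figure D3:**
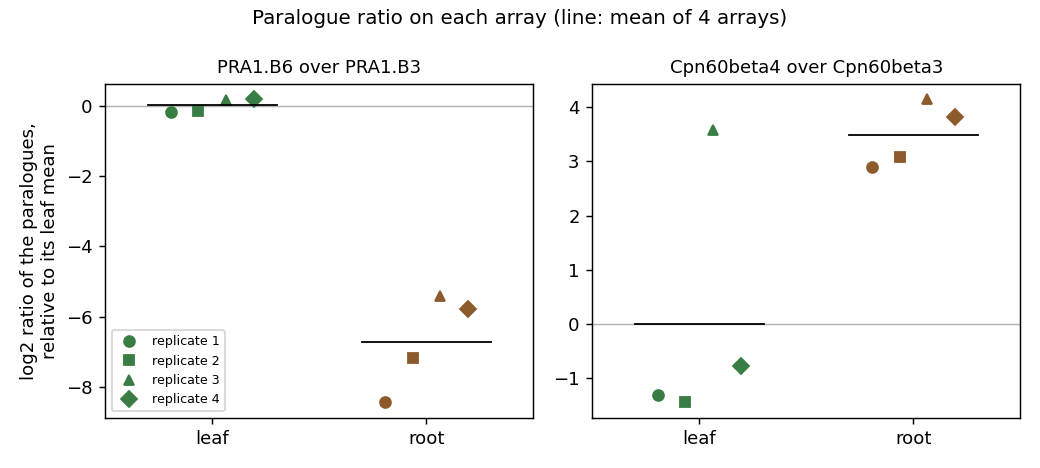
Log2 ratio of the paralogues on each array after normalisation, relative to its leaf mean (vertical axis), with a symbol per replicate number and a line at the mean of 4 arrays. The ratio of PRA1.B6 to PRA1.B3 separates the tissues, whereas in the chaperonin pair leaf replicate 3, at 3.58, lies among the root arrays.

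The paralogues also differed among the root arrays. On the deposited intensities, root replicates 1 and 2 were both above replicates 3 and 4 for PRA1.B3 and Cpn60beta3, an order found at 45.1% of the tested probes. They were both below for PRA1.B6 and Cpn60beta4, an order found at 20.4%. The same orders held after normalisation, where they were found at 29.2% and 32.6% of the probes. Expressed as replicates 1 and 2 minus replicates 3 and 4, the normalised root log2 values differed by 1.05 for PRA1.B3, -1.16 for PRA1.B6, 0.36 for Cpn60beta3 and -0.64 for Cpn60beta4. The labels name no batch, and the part of these subsets in the tissue differences was measured only by comparing within each. Within replicates 1 and 2 the tissue difference of PRA1.B3 was 4.09, and within replicates 3 and 4 it was 3.08. For PRA1.B6 the corresponding differences were -3.54 and -2.70, for Cpn60beta3 0.87 and 0.99, and for Cpn60beta4 5.26 and 3.59.

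PRA1.B3 and PRA1.B6 varied less among the leaf arrays than among the root arrays, a description that was not tested. The SD of the normalised log2 values of PRA1.B3 was 0.12 in leaf and 0.62 in root, and 12.0% and 69.8% of the tested probes had a smaller SD in that tissue. For PRA1.B6 the SD was 0.23 in leaf and 0.79 in root, with 25.3% and 79.1% of the probes below it. Cpn60beta3 had an SD of 0.30 in leaf and 0.22 in root.

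Of the 19 genes of the PRA1 family, 8 had a probe, and the 6 besides PRA1.B3 and PRA1.B6 were measured only on probes shared by several genes, whose signal cannot be assigned to 1 of them. There were 4 shared probes. One of them, probe 3872, also names PRA1.B3, so its values are a description like those of the 4 genes. The other 3 probes name none of the 4 genes, although the family list was drawn up with earlier results known. All 3 passed limma over all probes tested, where 42.2% did: 2 rose in root and 1 fell, with a median log2 difference of 1.72 against 0.05 over all probes. That median is the value of the probe shared by PRA1.B4 and PRA1.B5, whose call was lost under 9 of its 20 alternatives. None of 59 Rab GTPase and Rab GDI genes and none of 56 SNARE genes, the fusion proteins of vesicle traffic, had a probe.

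The probe shared by PRA1.B1 and PRA1.B2, which also share a probe with PRA1.B3, read 0.376, 0.449, 0.157 and 0.234 in leaf and 2.16, 2.29, 1.19 and 2.07 in root. Every root array was above every leaf array, by 2.66-fold at the closest, and the log2 difference was 2.50 ± 0.36 (limma, adjusted p = 9.79e-04). A probe shared by PRA1.B3, PRA1.B1 and PRA1.B2 read 0.0697, 0.119, 0.118 and 0.169 in leaf and 0.796, 0.951, 0.464 and 0.471 in root. Its log2 difference was 1.70 ± 0.27, given without a test, and root replicates 1 and 2 were brighter than 3 and 4, as for the PRA1.B3 probe. Both probes can carry signal of the same transcript, so they are not independent readings.

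The probe shared by PRA1.B4 and PRA1.B5 read 0.0603, 0.0140, 0.132 and 0.0335 in leaf and 0.233, 0.277, 0.618 and 0.578 in root. The deposited intensities did not overlap, but after normalisation those of the tissues did, and the log2 difference was 1.72 ± 0.58 (limma, adjusted p = 0.0456). Its root order was opposite to that of PRA1.B3, with replicates 3 and 4 the brighter. This call was lost without leaf replicate 1, 2 or 4 or root replicate 3 or 4, with adjusted p between 0.0726 and 0.111, and with the replicate number as a block (adjusted p = 0.0522). Over its 20 alternatives the adjusted p lay between 0.00826 and 0.172, the highest with averaged replicates.

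Outside the B group, the probe shared by PRA1.G1 and PRA1.G2 read 3.86, 4.17, 2.73 and 2.78 in leaf and 1.21, 1.32, 0.812 and 0.843 in root. Every leaf array was above every root array, by 2.07-fold at the closest. The probe fell in root, with a log2 difference of -1.70 ± 0.19 (limma, adjusted p = 2.73e-04), and kept its call under all 20 alternatives. Of the 6 probes of the family, PRA1.B6 and this one were thus the ones higher in leaf.

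**Figure D4:**
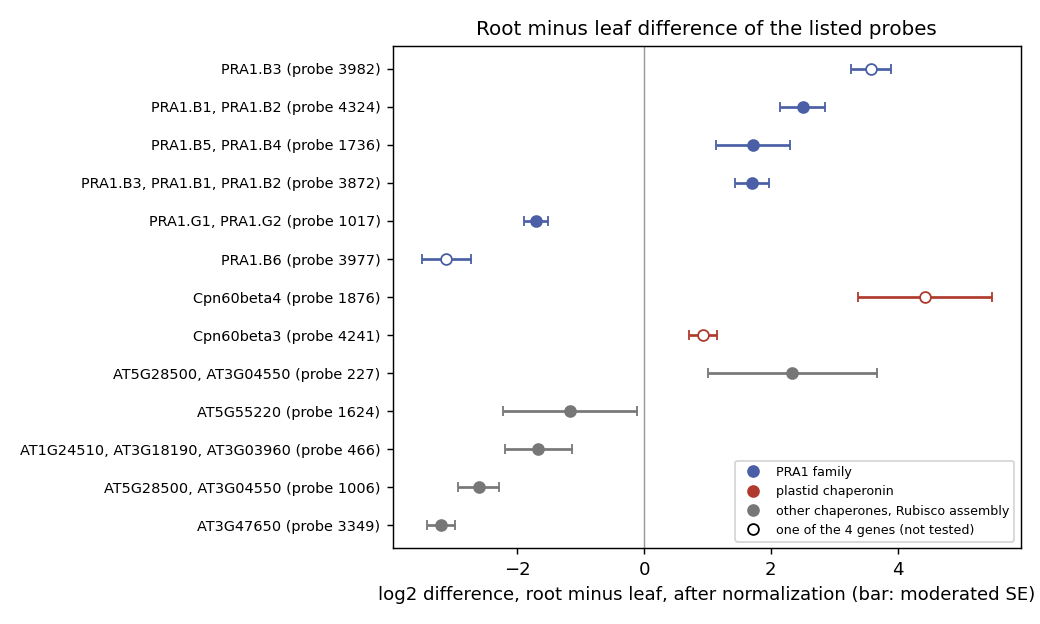
Log2 difference, root minus leaf, after normalisation (horizontal axis; bars are the moderated SE) of the probes of PRA1 genes (blue), plastid chaperonin genes (red) and the other listed chaperone and Rubisco assembly genes (grey), with open symbols for the 4 genes, which were not tested. Among the PRA1 probes, 4 lie above 0 and those of PRA1.B6 and of PRA1.G1 with PRA1.G2 lie below it.

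Of 9 listed plastid chaperonin genes (Cpn60 subunits and their Cpn20 and Cpn10 lids), Cpn60beta3 and Cpn60beta4 were the only ones with a probe, so the paralogues could not be set beside the alpha subunits or the other beta subunits. None of 5 listed mitochondrial chaperonin genes had one. The other chaperone, chaperonin and Rubisco assembly lists had 5 probes, of which 0 rose, 3 fell and 2 did not pass limma at an adjusted p of 0.05. Over all probes 20.1% rose, 22.1% fell and 42.2% passed in either direction. At an unadjusted p under 0.05 limma had 0 that rose as well, and none rose with a mean-variance trend. Their median log2 difference was -1.67, against 0.05 over all probes. That median is the value of 1 probe, shared by cytosolic chaperonin genes, which was -0.32 on the deposited intensities. The 5 differences lay on both sides of 0, so the median is no measure of a common fall.

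AT3G47650, on the list of Rubisco subunits and assembly factors, read 2.62, 2.51, 3.06 and 2.92 in leaf against 0.433, 0.301, 0.310 and 0.365 in root. The leaf arrays were all above the root arrays, by 5.79-fold at the closest, and the probe fell by 3.20 ± 0.22 (limma, adjusted p = 3.20e-05). A pair of probes shares the annotation AT5G28500 and AT3G04550, from the same list. Probe 1006 read 0.227, 0.374, 0.149 and 0.226 in leaf and 0.103, 0.0708, 0.0757 and 0.107 in root, and fell by 2.61 ± 0.32 (limma, adjusted p = 4.89e-04).

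Probe 227 of the same loci was listed at 0 on leaf replicates 1 and 2, read 0.215 and 0.0253 on leaf replicates 3 and 4, and read 0.360, 0.389, 0.0992 and 0.119 in root. The tissues overlapped, and its difference of 2.34 ± 1.33 did not pass (limma, adjusted p = 0.192). Without leaf replicate 3 it was called higher in root, at 3.41 (limma, adjusted p = 0.0348; 0.00323 to 0.922 over its alternatives). It was 0.12 with zeros as missing, 5.53 within replicates 1 and 2 and -0.85 within replicates 3 and 4, the last on the same side as probe 1006. The data thus give no settled direction for probe 227.

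A probe shared by AT1G24510, AT3G18190 and AT3G03960, genes on the list of the cytosolic chaperonin, read 0.111, 0.0508, 0.101 and 0.191 in leaf and 0.0647, 0.0410, 0.108 and 0.156 in root. These intensities overlapped widely, and the log2 difference of -1.67 ± 0.53 (limma, adjusted p = 0.0367) came with the normalisation. On the deposited intensities it was -0.32 (limma, adjusted p = 0.621), and the adjusted p ranged from 0.0128 to 0.679 over 20 alternatives. It also lost its call without leaf replicate 1, 3 or 4 or root replicate 1, 2 or 3, with adjusted p between 0.0512 and 0.0909. AT5G55220, on the list of other plastid chaperones, was listed at 0 on all arrays but leaf replicate 3, where it read 0.103, and did not pass (limma, adjusted p = 0.401).

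The single-gene probes whose pattern was most like each of the 4 genes were taken as the 3 with the highest Pearson correlation of normalised log2 values over the 8 arrays, among 661 probes. All these arrays share the split into leaf and root, which sets most of the correlation. For PRA1.B3 they were AT4G15790 (r = 0.997), AT3G57630 (0.996) and AT3G04210 (0.995), all of them brighter on root replicates 1 and 2 than on 3 and 4. AT3G04210, the one with a reading on every array, had a mean of 0.152 in leaf and 3.04 in root. For AT4G15790 and AT3G57630, listed at 0 on every leaf array, the leaf values were the floor. For PRA1.B6 they were PSBY (0.988), a photosystem II subunit, AT2G35390 (0.985) and AT2G36480 (0.984), with leaf means between 2.21 and 2.81 and root means between 0.821 and 0.920.

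For Cpn60beta3 the closest patterns were those of AT2G46630 (r = 0.990), AT3G16310 (0.985) and AT3G20150 (0.981), each brighter on root replicates 1 and 2. For Cpn60beta4 they were AT2G18920 (0.990), AT1G11730 (0.974) and AT2G28660 (0.974). AT2G18920 and AT1G11730 were, like Cpn60beta4, listed at 0 on every leaf array except leaf replicate 3. All correlations with Cpn60beta4 therefore rest in part on the floor that replaced its zeros. No gene was on more than 1 of these lists.

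**Figure D5:**
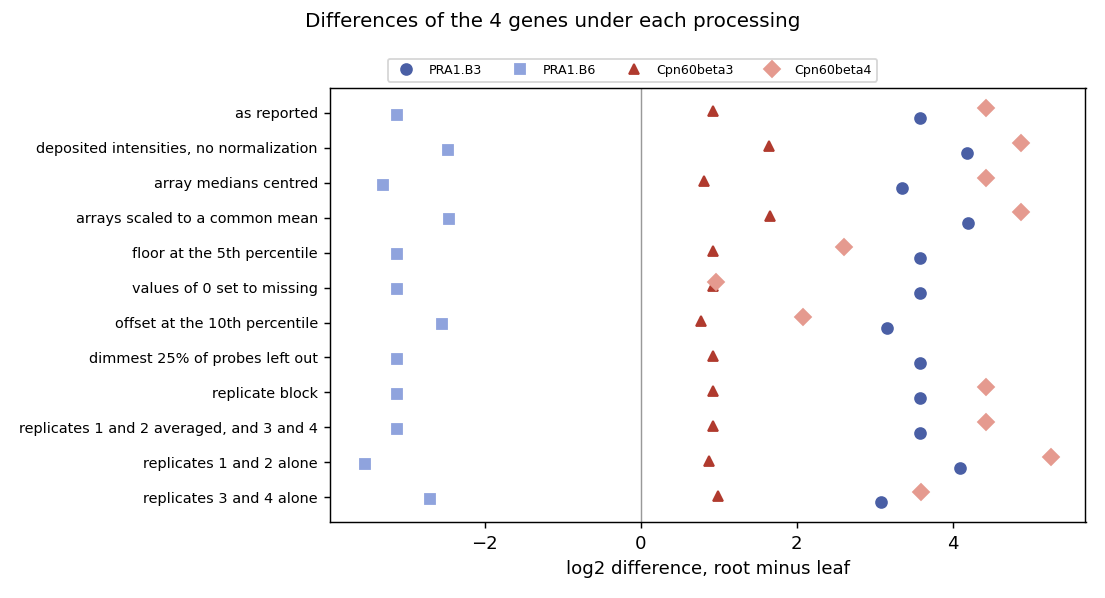
Log2 difference, root minus leaf (horizontal axis), of the 4 genes as reported and under each alternative processing (1 per line, leaving out the fits without 1 array). Every value keeps its side of 0. PRA1.B3 runs from 3.08 to 4.20, PRA1.B6 from -3.54 to -2.45 and Cpn60beta3 from 0.78 to 1.66. Cpn60beta4 runs from 0.97, with zeros as missing, to 5.26, within replicates 1 and 2 alone.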

How the data were processed

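Leaf and root RNA was measured on 4 arrays each, grouped and numbered by the sample titles. Each array holds a deposited intensity per probe. How the authors made them is not given in the sources used here. The scale of the intensity values was read from the numbers themselves. Depth cannot be stated for arrays, and the number of arrays limits the precision.

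Probe names came from the platform annotation and were matched through gene numbers to RefSeq for TAIR10.1, which served for names only. Quantile normalisation between arrays was followed by a floor of 0.00582, the 1st percentile of all readings above 0, and by the logarithm to base 2. Dropping 141 probes that never rose above this floor gave 3298 for testing. The tissues were compared with limma 3.58.1 under R 4.3.3 (lmFit, eBayes, tissue as the only term, two-sided, Benjamini-Hochberg over all probes, threshold 0.05). The fit was also run on simulated arrays with normal noise and a far smaller share of changed probes. Those arrays held no zeros, so they do not show how the floor behaves in these data. Figures were drawn with matplotlib 3.10.9. Sequences were not used here.

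The 4 genes and the gene lists were chosen with earlier results of these data known. Named were the 4 genes, every measured gene of the lists, with leaf markers summarised, and the 3 closest single-gene patterns per gene. Alternatives were other scalings, floors and filters, a replicate block, averaged replicates, a variance trend and leaving out each array. Comparing within replicates 1 and 2 and within 3 and 4 was added after the data were seen.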

Additional observations from a re-analysis of the deposited data

Results flagged for a closer look

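In 3 of the 37 sets of 4 arrays examined for the named probes, 1 array lay far from the other 3 of its tissue. The rule used gives about 1 in 20 by chance only for values without ties. These 3 sets hold tied zeros, so that rate does not apply to them. Where the other 3 arrays are at 0, any reading meets the rule. All 3 were leaf replicate 3: it read 0.0977 for Cpn60beta4 and 0.103 for AT5G55220, both listed at 0 on the other leaf arrays, and 0.215 at probe 227 of AT5G28500 and AT3G04550. Over all probes, 81 were above 0 on leaf replicate 3 alone among the leaf arrays, against 70, 56 and 69 on leaf replicates 1, 2 and 4. The part of this array in these readings was not tested.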

How the results depend on the processing

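PRA1.B3, PRA1.B6 and Cpn60beta3 kept their direction under all 19 alternatives each, and Cpn60beta4 under all 18 that gave it a value. Leaving out the dimmest 25% of probes removed Cpn60beta4. Since the genes were chosen with this contrast known and their tissues did not overlap, leaving out arrays could hardly reverse a direction. The higher floor, missing zeros, the replicate block and averaging left the estimates of PRA1.B3, PRA1.B6 and Cpn60beta3 unchanged by construction. Deposited and mean-scaled intensities gave 4.18 and 4.20 for PRA1.B3, -2.475 and -2.455 for PRA1.B6, and 1.64 and 1.66 for Cpn60beta3, with 1138 and 1154 probes called higher in root; both leave the arrays' medians unequal. Cpn60beta4 gave 2.61 (5th percentile floor), 0.97 (zeros missing) and 2.07 (offset), and its contrast with Cpn60beta3 1.68, -0.084 and 1.295. The PRA1.B contrast was -5.71 with the offset. PRA1.B3 gave 4.09 and 3.08 within replicates 1 and 2 and within 3 and 4, where probe 227 reversed to -0.85 within 3 and 4; the cause was not tested. Averaging these subsets left 336 of the 3298 probes called towards root and 370 towards leaf, with fewer samples in the fit. Of the 3 shared PRA1 probes that name none of the 4 genes, the one of PRA1.B4 and PRA1.B5 lost its call with averaging. Those of PRA1.G1 with PRA1.G2 and of PRA1.B1 with PRA1.B2 kept theirs. Without 1 array, PRA1.B3 ran from 3.44 to 3.86, PRA1.B6 from -3.45 to -2.82, Cpn60beta3 from 0.80 to 1.05, Cpn60beta4 from 3.93 to 5.50, the contrasts from -7.31 to -6.27 and from 2.93 to 4.62, and the calls from 545 to 653 and from 656 to 672.

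Same-numbered leaf and root arrays correlated at 0.100, 0.126, 0.090 and 0.112 in their deviations from the tissue means, and since 1 of the 4 fell short of the limit set for pairing, the numbers were not used as pairs. Each array correlated best with its own number, a hint from the data that same-numbered arrays may share more than a number. With the replicate block, limma called 596 of the 3298 probes towards root and 648 towards leaf. Among the shared PRA1 probes that name none of the 4 genes, those of PRA1.G1 with PRA1.G2 and of PRA1.B1 with PRA1.B2 kept their calls (limma, adjusted p = 0.00362 and 0.00443). The probe of PRA1.B4 and PRA1.B5 lost its call (limma, adjusted p = 0.0522).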
